A study of Homo sapiens with 4 samples.

Results

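ICAM1 and 9 other adhesion molecules of the immunoglobulin superfamily were followed in RNA-seq counts from A549 cells, an established line grown from a human lung carcinoma. The 10 genes are ICAM1, ICAM2, ICAM3, ICAM4, ICAM5, VCAM1, CD58, L1CAM, ALCAM and MCAM, out of 58051 genes in the count files. They were matched by Ensembl identifier, and all 10 were found. The set was chosen by the counts of ICAM1 and of other NF-κB genes in these same libraries, where ICAM1 was higher with doxycycline while the others were lower. The values of ICAM1 are therefore given as a description and carry no test. The other members were taken by name, with ICAM3, ICAM4 and ICAM5 included as chromosome 19 neighbours of ICAM1.

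The plus Dox group holds 2 polyA RNA libraries of A549 cells given doxycycline at 1 µg/mL, and the minus Dox group holds 2 libraries with no treatment. Cells of both groups carry the same doxycycline-inducible A-FOS gene, which the sample titles call a knock-in and the design text describes as a random piggyBac insertion. A-FOS is a dominant-negative FOS that pairs with JUN and holds it off DNA, and JUN is a core subunit of the transcription factor AP-1. No library lacks the insertion, so the action of doxycycline itself and that of A-FOS cannot be told apart. The labels do not state whether both libraries of each group stem from cultures grown apart, so every p-value here weighs a difference against the spread between these samples alone, and that spread may be technical.

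Adhesion molecules of this superfamily stand on the cell surface with extracellular immunoglobulin domains and bind integrins, or each other, on a facing cell. The ICAMs are bound by leukocyte β2 integrins, VCAM1 by the integrin α4β1, CD58 by CD2 on T cells and ALCAM by CD6. ICAM1 and VCAM1 are known for induction by inflammatory cytokines through NF-κB, and ICAM1 also for induction by interferon gamma, in epithelium as well as endothelium. L1CAM and MCAM are adhesion molecules of neurons and of vessel walls that many tumours also express.

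The libraries held 31104964 to 40526912 counts. Reads counted to FOS, which cannot be separated from reads of the inserted gene, came to 49.8 ± 1.64 CPM in plus Dox and 1.44 ± 0.113 CPM in minus Dox (SD, n = 2 each, here and for each mean below). CPM relate each count to the TMM-scaled total of its library. Epithelial markers summed to 6495 and 6299.5 CPM in plus Dox and to 12632 and 12972 CPM in minus Dox, with all 8 markers above the filter on low counts, 1 of them higher and 5 lower. The largest difference in CPM among them was that of KRT7, at 526 CPM in plus Dox and 4544 CPM in minus Dox. Of 9 endothelial markers 5 were above that filter (2 higher, 2 lower), and their sum of 54.2 and 57.0 CPM in plus Dox and 48.7 and 47.5 CPM in minus Dox was nearly all EGFL7, which A549 cells held at 54.1 and 45.7 CPM. Leukocyte markers summed to 6.70 and 5.70 CPM in plus Dox and to 5.71 and 4.64 CPM in minus Dox, with 2 of 9 above the filter (CORO1A higher, CD14 lower) and the T cell genes CD3E and CD3D at 0 in every library. Fibroblast markers summed to 40.0 and 41.9 CPM in plus Dox and to 43.6 and 49.9 CPM in minus Dox, most of it COL1A1, with 5 of 7 above the filter and 1 of them lower. Among all tested genes 28.4% were higher and 28.4% lower. The part of these markers in the results was not tested, and in bulk RNA fewer cells with a transcript and less of it per cell cannot be told apart.

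Sequences just before the start of ICAM1, VCAM1 and MCAM are shown because they carry the motifs by which these promoters are usually discussed. Each is the 250 bases before the start in RefSeq on GRCh38.p14, 5′ to 3′ on the gene's strand, which is plus for ICAM1 (chr19:10270870-10271119) and VCAM1 (chr1:100719492-100719741) and minus for MCAM (chr11:119317131-119317380). Capitals mark matches to the 6 motifs searched, and the windows of ICAM1 and MCAM lie inside these genes as annotated in GENCODE 29, whose starts are farther upstream.
ICAM1: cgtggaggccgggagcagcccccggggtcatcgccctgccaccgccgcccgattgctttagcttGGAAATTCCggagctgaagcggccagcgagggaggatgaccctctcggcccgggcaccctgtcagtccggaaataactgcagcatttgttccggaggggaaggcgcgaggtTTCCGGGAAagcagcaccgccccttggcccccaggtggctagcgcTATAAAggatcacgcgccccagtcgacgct
VCAM1: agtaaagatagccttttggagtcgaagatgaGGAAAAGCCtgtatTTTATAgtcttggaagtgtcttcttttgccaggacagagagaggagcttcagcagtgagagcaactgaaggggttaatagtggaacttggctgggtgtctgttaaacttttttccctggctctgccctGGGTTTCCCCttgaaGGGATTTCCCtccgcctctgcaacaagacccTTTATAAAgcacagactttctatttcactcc
MCAM: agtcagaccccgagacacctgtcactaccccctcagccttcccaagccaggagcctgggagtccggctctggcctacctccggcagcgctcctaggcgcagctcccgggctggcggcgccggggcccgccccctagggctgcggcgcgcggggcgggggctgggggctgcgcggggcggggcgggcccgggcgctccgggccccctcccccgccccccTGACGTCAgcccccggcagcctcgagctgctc
In the ICAM1 sequence the capitals are, from left to right, a match to an NF-κB form at −186 to −178, a match to the STAT-bound GAS element at −75 to −67, and a TATA box at −30 to −25, counted from the base before the start. VCAM1 holds a pair of NF-κB matches at −77 to −68 and −62 to −53, another at −219 to −211 on the opposite strand, and TATA matches at −29 to −24 and overlapping it at −31 to −26 and farther out at −205 to −200. MCAM holds the cAMP response element TGACGTCA at −32 to −25. None of the 12 promoter entries found for 9 members matched the AP-1 site TGANTCA in this window.

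The motifs were searched on both strands, and their frequency among all 35116 promoter entries of the same length puts the matches in proportion. The NF-κB form GGNNNTTCC was found in 17.1% of entries and a longer NF-κB form, with 3 G and 3 C around a spacer of 4 bases, the third being T, in 6.48%. In VCAM1 a match to each form begins at −62. The GAS letters TTCNNNGAA were found in 6.57%, TATAAA in 10.7%, TGACGTCA in 1.65% and TGANTCA in 6.57%. Among other members, CD58 matched GGNNNTTCC, and L1CAM and ICAM4 matched the longer form. ALCAM, ICAM3 and ICAM5 had no match to any of the 6 motifs. A match shows only that these letters stand in this window.

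Of the 10 members, 9 had at least 1 count and 6 passed the filter on low counts. The 6 were ICAM1, ICAM5, CD58, L1CAM, ALCAM and MCAM. ICAM1, chosen for being higher in these libraries, is left out of the counts that follow. Of the other 5 by edgeR's quasi-likelihood test with adjustment over all 18046 tested genes, 2 were higher in plus Dox (CD58 and MCAM), 2 were lower (L1CAM and ALCAM) and ICAM5 did not pass. Among all tested genes 56.9% were called, 28.4% higher and 28.4% lower, so calls of this kind were common. DESeq2 called 3 of the 5 (47.8% of all tested genes), losing CD58, and edgeR with library size scaling called 4 (59.8% of all tested genes). In 4 of the 5 the plus Dox and minus Dox libraries did not overlap, against 77.0% of all tested genes. None of the 5 had a fitted difference of at least 2-fold, while 6.70% of tested genes were called higher by that much and 6.01% lower.

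**Figure D1:**
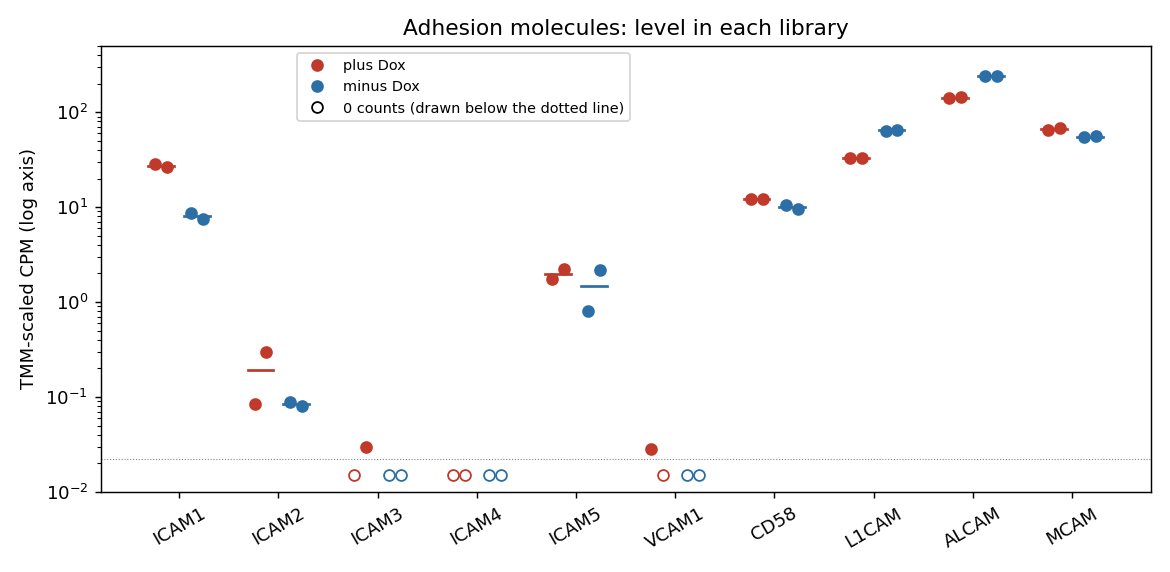
Levels of the members in each library, in TMM-scaled CPM on a log axis, with plus Dox left of minus Dox for each gene 1 point for each library and a line at the mean. Open circles under the dotted line are counts of 0. ICAM1 stands at 28.4 and 26.5 CPM in plus Dox and at 8.64 and 7.44 CPM in minus Dox, while ALCAM and L1CAM lie lower in plus Dox and the 2 minus Dox values of ICAM5 are far apart.

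ICAM1 (ENSG00000090339, chromosome 19, 10270835 to 10286615 on the plus strand, hg38) is the main epithelial ligand of the β2 integrins LFA-1 and Mac-1 and the docking receptor of most rhinoviruses. Its counts were 999 and 890 in plus Dox and 292 and 279 in minus Dox. The plus Dox libraries were both far above the minus Dox libraries, at 27.5 ± 1.29 CPM against 8.04 ± 0.844 CPM. This is a fitted 3.42-fold difference, or a log2 fold change of 1.78 (SE 0.095), given as a description because ICAM1 was chosen on this contrast. It was the 428th highest log2 fold change of the 18046 tested genes. The log2 fold change ranged from 1.66 to 1.99 over all 12 alternative settings. Of its 3706 exon bases 815 lie opposite exons of the antisense gene ICAM4-AS1, 22.0% of them, and 61 lie opposite LIMASI, 1.65%. Whether the counting used strand is not given in the sources used here. ICAM4-AS1 itself had 0 and 3 counts in plus Dox and 3 and 1 in minus Dox.

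VCAM1 (ENSG00000162692, chromosome 1, 100719742 to 100739045 on the plus strand), the other cytokine-induced member and the ligand of the integrin α4β1, was barely detected. It had 1 and 0 counts in plus Dox and 0 and 0 counts in minus Dox. A count of 0 allows up to 3 counts, which is 0.0895 CPM in the plus Dox library without a read and 0.0887 and 0.0800 CPM in the minus Dox libraries. A difference in VCAM1 between the groups was not detectable at this depth. Such limits, and the intervals on counts below, cover counting error only.

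ICAM2 (ENSG00000108622, chromosome 17, 64002594 to 64020634 on the minus strand), an ICAM of endothelium and platelets, had 3 and 10 counts in plus Dox and 3 and 3 in minus Dox. The exact Poisson 95% intervals of these counts overlap, reaching 18.4 for the count of 10 and 8.77 for a count of 3. Exons of PRR29 lie opposite 26.8% of its exon bases. ICAM2 did not pass the filter on low counts, and its groups overlap.

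The other ICAM genes stand next to ICAM1 on chromosome 19. ICAM4 (ENSG00000105371, 10286967 to 10288522 on the plus strand), a red cell ICAM that carries the Landsteiner-Wiener blood group, had 0 counts in every library. All of its exon bases lie opposite exons of ICAM4-AS1. Of 18 protein-coding genes placed in this way, 14 were at 0 in every library (77.8%), against 2029 of 11321 protein-coding genes that share no exon base (17.9%), so a count of 0 for ICAM4 cannot be read as absent transcript. ICAM3 (ENSG00000076662, 10333776 to 10339823 on the minus strand), the ICAM of resting leukocytes, had 0 and 1 counts in plus Dox and 0 and 0 in minus Dox. It shares 71.2% of its exon bases with ENSG00000274425 on the opposite strand, which had 20 and 20 counts in plus Dox and 23 and 22 in minus Dox.

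ICAM5 (ENSG00000105376, 10289981 to 10296778 on the plus strand), telencephalin, is known from forebrain neurons. It had 62 and 74 counts in plus Dox and 27 and 81 in minus Dox, or 1.76 and 2.21 CPM in plus Dox and 0.799 and 2.16 CPM in minus Dox. The minus Dox libraries stand on both sides of the lower plus Dox library, so the groups overlap. The log2 fold change was 0.40 (SE 0.30, 95% interval −0.22 to 1.02), with an edgeR adjusted p of 0.270. Minus Dox replicate 1 held 25.0% of the ICAM5 counts of its group (exact binomial 95% interval 17.2% to 34.3%) but 47.3% of its reads. The log2 ratio of 1.33 between these libraries was larger in size than that of 99.3% of the 4726 genes at 0.5 to 5 CPM, where the median was 0.25. Without minus Dox replicate 1 the log2 fold change was −0.14 (adjusted p = 0.722), and without minus Dox replicate 2 it was 1.30 (adjusted p = 0.00161), so the direction of ICAM5 rests on which minus Dox library is kept.

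ALCAM and L1CAM were lower in plus Dox. ALCAM (ENSG00000170017, chromosome 3, 105366909 to 105576900 on the plus strand), the ligand of CD6 that also binds itself, had 142 and 144 CPM in plus Dox and 244 and 242 CPM in minus Dox. With 4994 and 4816 counts in plus Dox against 8239 and 9061 in minus Dox, it was the most deeply read member. The groups lie well apart, and the log2 fold change was −0.77 (SE 0.040, edgeR adjusted p = 3.98e-18). L1CAM (ENSG00000198910, chromosome X, 153861514 to 153886174 on the minus strand), a neural adhesion molecule that binds itself and RGD-binding integrins, had 33.3 and 32.8 CPM in plus Dox and 63.9 and 65.7 CPM in minus Dox. It fell 1.96-fold, by 0.97 on the log2 scale (SE 0.060), with an edgeR adjusted p of 3.05e-16. Both remained lower in all 12 alternatives, over −0.86 to −0.55 for ALCAM and −1.01 to −0.76 for L1CAM.

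MCAM and CD58 were slightly higher in plus Dox. MCAM (ENSG00000076706, chromosome 11, 119308529 to 119321521 on the minus strand), also called CD146 and known from endothelium and melanoma, had 65.0 and 67.8 CPM in plus Dox and 54.9 and 56.0 CPM in minus Dox. Its log2 fold change was 0.26 (SE 0.055, edgeR adjusted p = 1.26e-04), and exons of CBL lie opposite 6.86% of its exon bases. CD58 (ENSG00000116815, chromosome 1, 116514535 to 116571039 on the minus strand), the CD2 ligand that helps T cells and NK cells recognise a target, had 12.3 and 12.2 CPM in plus Dox and 10.6 and 9.63 CPM in minus Dox. Its log2 fold change was 0.28 (SE 0.11, edgeR adjusted p = 0.0247). The groups of CD58 do not overlap, but the call was lost with DESeq2 (adjusted p = 0.118), with no filter on low counts (adjusted p = 0.0530) and without plus Dox replicate 1, plus Dox replicate 2 or minus Dox replicate 2 (adjusted p = 0.115, 0.0858 and 0.168).

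Per kilobase of exon, the order of the members changed between the groups. The length used is that of all annotated exons of a gene together. It can differ from that of the transcripts present, so different genes can be compared only roughly. In plus Dox the mean levels were 19.9 CPM per kb for ALCAM, 8.94 for MCAM, 7.41 for ICAM1, 6.87 for CD58, 4.54 for L1CAM and 0.508 for ICAM5. In minus Dox they were 33.8 CPM per kb for ALCAM, 8.92 for L1CAM, 7.47 for MCAM, 5.67 for CD58, 2.17 for ICAM1 and 0.379 for ICAM5. By this measure ICAM1 stood above CD58 and L1CAM in plus Dox and below both in minus Dox, though ICAM1 and CD58 were close in plus Dox. Within each group, the libraries of genes next to each other in this order did not overlap. That spread does not cover error in the lengths or in the counting of overlapping exons. Added up, the 10 members had 283 and 285 CPM in plus Dox and 383 and 383 CPM in minus Dox, with ALCAM the largest share of each sum.

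The position of ICAM1 allowed a comparison with its neighbours on chromosome 19. Of 59 genes that start within 500 kb of it, 35 were tested, of which 7 were higher, 12 lower and 16 did not pass, with a median log2 fold change of −0.12 against 0.00 over all tested genes. The share called was 54.3% of these neighbours, near the 56.9% of all tested genes. With scaling by library size only, 14 were higher and 6 lower with a median of 0.10, where the median of all genes is 0.22. Within 100 kb 9 genes were tested. S1PR2, a sphingosine-1-phosphate receptor that starts at −39.5 kb from ICAM1, rose to 3.62 ± 0.307 CPM in plus Dox, against 2.10 ± 0.213 CPM in minus Dox, with a log2 fold change of 0.79 and an adjusted p of 0.00122. DNMT1, the maintenance DNA methyltransferase, fell by 0.31 on the log2 scale, to 231 CPM in plus Dox against 288 CPM in minus Dox, but had −0.016 (adjusted p = 0.764) after removal of a trend with GC content, exon length and abundance. MRPL4, a mitochondrial ribosomal protein gene that is the nearest tested neighbour, fell by 0.21 on that scale, but with library size scaling its value was 0.01, and its call was lost without plus Dox replicate 1 (adjusted p = 0.142).

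The other 6 tested genes within 100 kb did not pass. They were ICAM5 and RAVER1, with log2 fold changes of 0.40 and −0.12, and the low-count genes ZGLP1, FDX2, ENSG00000167807 and ENSG00000274425, each under 1 CPM in mean. RAVER1, a splicing co-regulator, had 55.9 ± 2.71 CPM in plus Dox and 60.6 ± 2.06 CPM in minus Dox. Farther out, and named after their values were seen, the cell cycle inhibitor CDKN2D rose by 1.21 on the log2 scale, to 10.3 CPM in plus Dox against 4.45 CPM in minus Dox. The choline transporter gene SLC44A2 rose by 1.10 on the same scale, to 52.9 CPM in plus Dox against 24.7 CPM in minus Dox. They start 298 kb and 332 kb from ICAM1, and ICAM1 had the highest log2 fold change of the tested genes within 500 kb, which is the value it was chosen for.

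**Figure D2:**
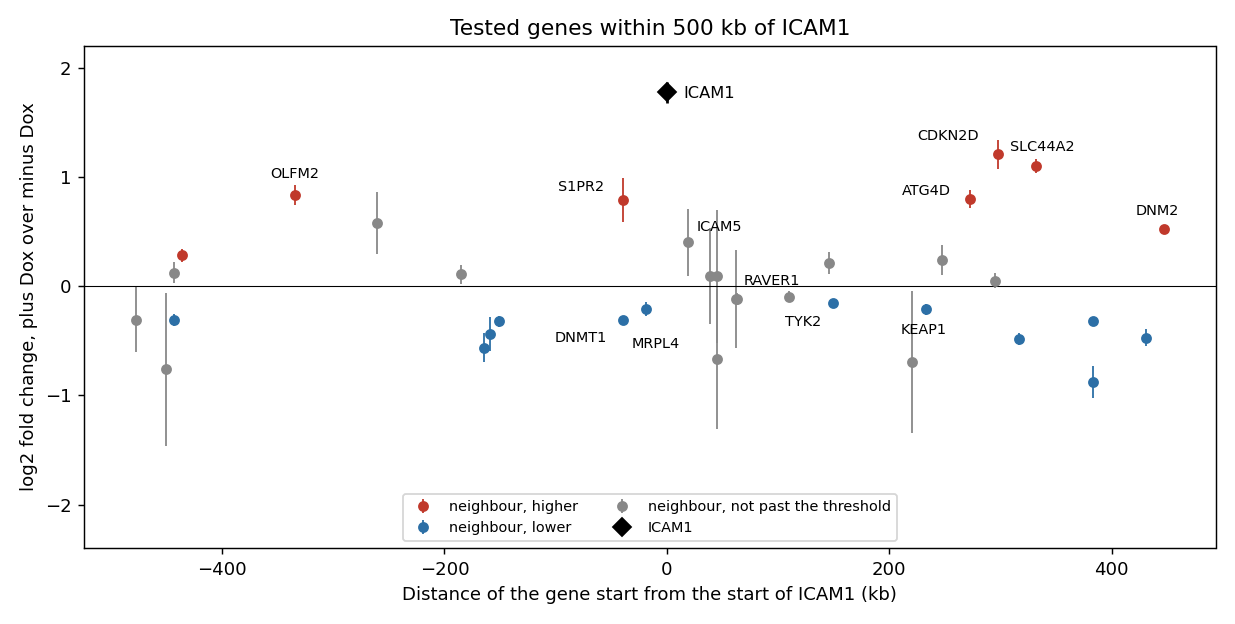
Log2 fold change of plus Dox over minus Dox for tested genes within 500 kb of ICAM1, plotted against the distance of their starts from the start of ICAM1 in kb, with ICAM1 at 0 and bars of 1 SE. ICAM1 stands at 1.78, most neighbours lie near 0, and S1PR2 at 0.79 is the only neighbour within 100 kb that was called higher.

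NF-κB is the pathway through which cytokines act on the ICAM1 and VCAM1 promoters, and most of its listed subunits and regulators were lower in plus Dox. Of 20 tested genes 3 were higher, 15 lower and 2 did not pass, with a median log2 fold change of −0.42. That is 75% lower, against 28.4% of all tested genes. The set was chosen partly because NF-κB genes were lower in these libraries, so these counts are not independent evidence of that. MAP3K14, the NIK kinase of the non-canonical branch, fell to 29.7 ± 0.163 CPM in plus Dox, against 101 ± 1.44 CPM in minus Dox, a log2 fold change of −1.77. The inhibitor NFKBIA fell by 0.70 and TNIP1, an inhibitor that works with TNFAIP3, fell by 0.62 on the log2 scale. The kinase CHUK, a subunit of the IκB kinase, rose by 0.68, to 90.2 CPM in plus Dox against 56.1 CPM in minus Dox. The other 2 that rose were the deubiquitinase CYLD (0.62) and the subunit REL (0.54). With the trend in GC, length and abundance taken out, NFKBIA had −0.35 and CHUK 0.19, and REL lost its call (0.19, adjusted p = 0.183). The subunits NFKB1 and RELA fell by 0.46 and 0.23, and RELA lost its call with library size scaling (−0.01) and with the trend removed (−0.08). That scaling left 9 of the 20 genes lower and 5 higher.

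Inflammatory genes known as NF-κB targets were mostly lower. Of 19 tested of 24 listed, 2 were higher, 16 lower and 1 did not pass, where NFKBIA and TNFAIP3 are among the 16 and also among the 15 lower subunits and regulators. The list had a median log2 fold change of −1.03, and 10 of the lower ones differed by at least 2-fold. Among all tested genes 28.4% were lower, and 6.01% were lower by at least 2-fold. Complement C3 fell to 139 ± 4.49 CPM in plus Dox, against 352 ± 2.97 CPM in minus Dox. TNFAIP2, LIF and the neutrophil chemokine CXCL5 fell by 1.07, 1.03 and 0.98 on the log2 scale. The chemokine CXCL8 had 0.284 and 0.0895 CPM in plus Dox and 4.61 and 3.81 CPM in minus Dox. The 2 higher genes were the acute phase genes SAA1 and SAA2, near-identical copies whose reads may have been split, and SAA1 had 4.15 and 2.98 CPM in plus Dox and 0.444 and 0.534 CPM in minus Dox. SAA2 lost its call without plus Dox replicate 2 (adjusted p = 0.254) and without minus Dox replicate 1 (adjusted p = 0.0893). This contrast between ICAM1 and the other targets is what the set was drawn up for, so these counts are not independent evidence of it.

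Genes of the interferon and STAT route, the other known input to ICAM1, split evenly, as all tested genes did. Of 25 tested genes 9 were higher, 9 lower and 7 did not pass, with a median of −0.06. These are 36% higher and 36% lower, against 28.4% and 28.4% of all tested genes. The split depends on scaling, since 13 were higher and 3 lower with library size only. Both chains of the interferon gamma receptor rose, IFNGR1 by 0.42 to 38.0 CPM in plus Dox against 28.4 CPM in minus Dox, and IFNGR2 by 0.45 to 16.8 CPM in plus Dox against 12.2 CPM in minus Dox. The kinase JAK1 fell by 0.79 on the log2 scale, to 224 ± 0.932 CPM in plus Dox against 387 ± 2.05 CPM in minus Dox, and its partner JAK2 rose by 0.51. With the trend in GC, length and abundance taken out, IFNGR1 had 0.24 and JAK1 −0.51, and JAK2 lost its call (0.16, adjusted p = 0.172).

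IRF1, an interferon gamma target and regulator, had 22.6 and 22.2 CPM in plus Dox and 24.4 and 30.0 CPM in minus Dox, and its call as lower was lost without minus Dox replicate 2 (adjusted p = 0.237) and with library size scaling (adjusted p = 0.529). GBP2, a guanylate-binding protein induced by interferon gamma, fell by 1.20, to 5.76 CPM in plus Dox against 13.3 CPM in minus Dox. Among receptors of the IL-6 family, the shared chain IL6ST rose by 0.77 to 316 CPM in plus Dox against 186 CPM in minus Dox, and OSMR fell by 0.43. STAT3 fell by 0.26 on the log2 scale, but lost its call with library size scaling (−0.04). With the trend in GC, length and abundance taken out, STAT3 had 0.15, IL6ST 0.48 and OSMR −0.27.

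**Figure D3:**
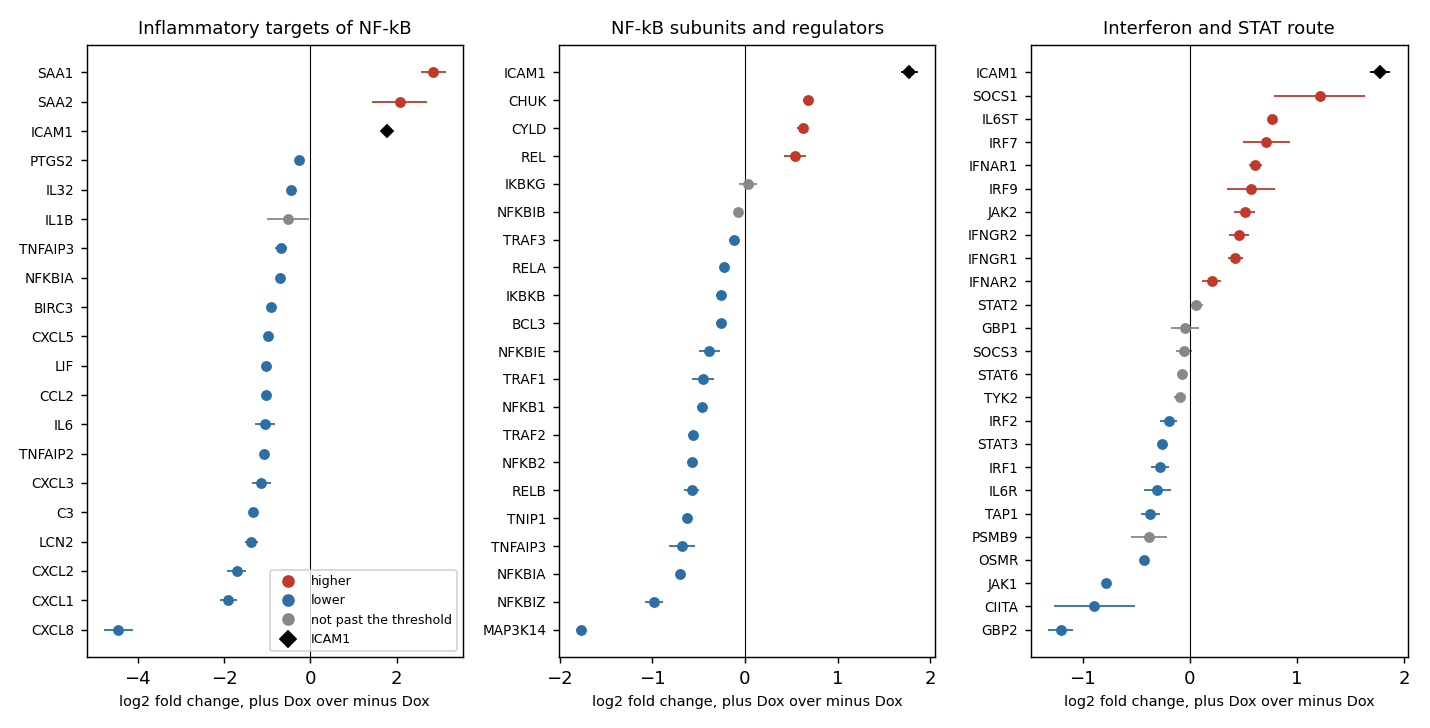
Log2 fold change of plus Dox over minus Dox for the tested genes named on the axes, from the NF-κB inflammatory targets, the NF-κB subunits and regulators and the interferon and STAT list, with bars of 1 SE and ICAM1 as a black diamond. Of the inflammatory targets 16 of 19 were called lower and ICAM1 stands at 1.78, above all of them but SAA1 and SAA2.

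Of 12 listed partners that bind the members from a facing cell, 9 were tested, of which 2 were higher, 4 lower and 3 did not pass. The share called was 66.7%, against 56.9% of all tested genes. ITGB1, the β1 integrin chain that pairs with α4 to bind VCAM1, fell by 0.47 to 1117 CPM in plus Dox, against 1552 CPM in minus Dox, but had −0.20 with the trend in GC, length and abundance taken out. ITGA4, its α4 partner, fell by 1.23 to 2.87 ± 0.0862 CPM in plus Dox against 6.74 ± 0.294 CPM in minus Dox. ITGAX, the β2 integrin α chain also called CD11c, fell by 1.16, with 1.25 and 1.76 CPM in plus Dox and 3.28 and 3.44 CPM in minus Dox. The ALCAM receptor CD6 rose by 2.08, with 1.42 and 2.18 CPM in plus Dox and 0.473 and 0.373 CPM in minus Dox. ITGA9, an α chain that also binds VCAM1, was the other higher gene, at 0.540 and 0.298 CPM in plus Dox and 0.118 and 0.0534 CPM in minus Dox. Its call was lost with DESeq2 (adjusted p = 0.0656) and without plus Dox replicate 1 (log2 fold change 1.77) or minus Dox replicate 2 (1.79). ITGB2, the β2 chain shared by the integrins that bind ICAMs, fell by 0.54 on the log2 scale, to 1.88 CPM in plus Dox against 2.73 CPM in minus Dox. The call of ITGB2 was lost with DESeq2 (adjusted p = 0.174), with library size scaling (−0.33, edgeR adjusted p = 0.221) and with any library but minus Dox replicate 1 left out. The CD58 receptor CD2 and the ICAM3 receptor CD209 had no count in any library.

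The cytoplasmic anchors and the sheddases of the members were more often lower, and this depended on processing. Of 20 tested genes 4 were higher, 11 lower and 5 did not pass, with a median of −0.28. The share called was 75%, against 56.9% of all tested genes. After removal of the GC, length and abundance trend 9 were higher and 6 lower with a median of 0.07. EZR, ezrin, which ties ICAM1 and ICAM2 to actin, fell by 0.98 to 372 ± 3.69 CPM in plus Dox against 733 ± 8.18 CPM in minus Dox. ACTN4 and FLNA fell by 0.66 and 0.67. With the trend removed EZR had −0.51, ACTN4 0.09 and FLNA 0.17. ADAM17, a protease that releases ICAM1, VCAM1, ALCAM and L1CAM from the surface, fell by 0.34 to 64.2 CPM in plus Dox against 81.4 CPM in minus Dox, with −0.13 by library size scaling and −0.61 with the trend removed. The ankyrins ANK2 and ANK3, which bind the cytoplasmic tail of L1CAM, rose by 0.78 and 0.75, and ARHGEF26, an exchange factor that acts below clustered ICAM1, rose by 1.12 to 7.38 CPM in plus Dox against 3.39 CPM in minus Dox.

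The wider immunoglobulin adhesion family changed in both directions, as all tested genes did. Of 46 other such genes 37 were tested, 15 were higher, 16 lower and 6 did not pass, with a median of −0.19. The share called was 83.8%, against 56.9% of all tested genes. These are 40.5% higher and 43.2% lower, against 28.4% and 28.4% of all tested genes. CEACAM1, a carcinoembryonic antigen relative that binds itself, rose by 1.44 to 27.4 ± 0.0829 CPM in plus Dox against 10.1 ± 0.0589 CPM in minus Dox. Its relative CEACAM6, which can share reads with it, fell by 1.80 to 2.43 CPM in plus Dox against 8.47 CPM in minus Dox. NFASC, neurofascin, of the same L1 family as L1CAM, rose by 1.78 to 9.21 ± 0.196 CPM in plus Dox against 2.65 ± 0.779 CPM in minus Dox. CXADR, the coxsackievirus and adenovirus receptor of tight junctions, rose by 1.04 to 27.3 CPM in plus Dox against 13.2 CPM in minus Dox.

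Abundant members of the family went both ways. NEO1, neogenin, rose by 0.24 to 234 CPM in plus Dox against 198 CPM in minus Dox, the nectin NECTIN2 rose by 0.31 to 220 CPM in plus Dox against 177 CPM in minus Dox, and the laminin-binding BCAM rose by 0.51 to 164 CPM in plus Dox against 115 CPM in minus Dox. With library size scaling NEO1 had 0.46 and NECTIN2 0.52. With the trend in GC, length and abundance taken out they had 0.52 and 0.53. PTPRF, a receptor phosphatase, fell by 0.89 to 285 ± 5.19 CPM in plus Dox against 526 ± 11.6 CPM in minus Dox. The poliovirus receptor PVR fell by 0.75 to 165 CPM in plus Dox against 278 CPM in minus Dox, and contactin CNTN1 fell by 0.74 to 297 CPM in plus Dox against 497 CPM in minus Dox. With the trend removed PTPRF had −0.54 and PVR −0.48. BSG, basigin, fell by 0.20 on the log2 scale, but had 0.01 with library size scaling and 0.17 once the GC, length and abundance trend was taken out. A difference of at least 2-fold was seen in 4 of the 15 that rose and 5 of the 16 that fell, out of 37 tested. Among all tested genes 6.70% were called higher by that much and 6.01% lower. ICAM1 with 1.78 was close to NFASC, the highest of the 37.

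**Figure D4:**
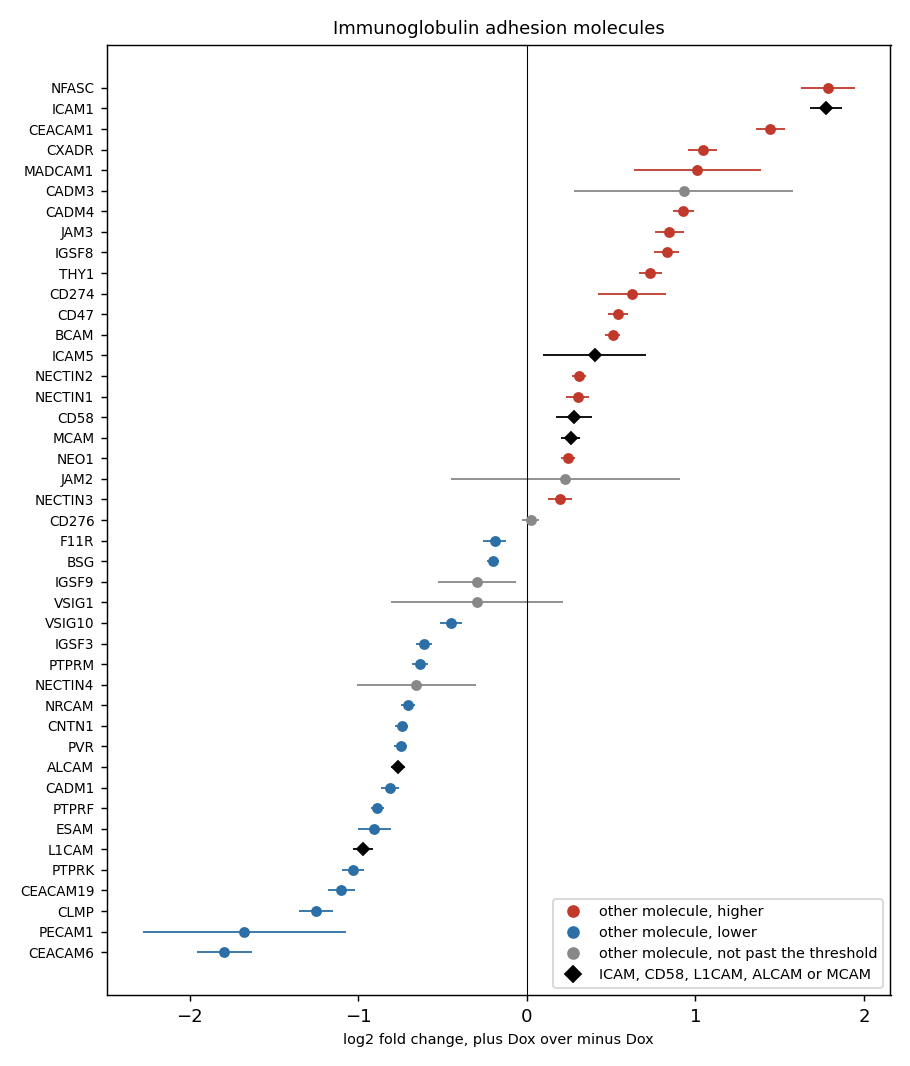
Log2 fold change of plus Dox over minus Dox for the 6 tested members and the 37 other tested immunoglobulin adhesion genes, ordered by value, with bars of 1 SE and the members as black diamonds. Genes higher and lower in plus Dox are nearly equal in number, 15 and 16 of the 37, as they are among all tested genes. NFASC and ICAM1 both stand at 1.78, while CEACAM6 stands at −1.80.

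The genes whose 4 libraries lay closest to ICAM1, by Euclidean distance between log2 CPM centred on each gene's mean, were PHTF2 (0.093), MICU3 (0.12), CCDC126 (0.12), STARD4 (0.13) and ENPP4 (0.14). They were taken among genes with a mean of at least 5 CPM, over 4 libraries in 2 groups, so this likeness is mainly a like fold change. It depends on processing, since with the trend in GC, length and abundance taken out the log2 fold changes were 1.28 for PHTF2, 1.03 for MICU3, 1.18 for CCDC126, 0.99 for STARD4 and 0.85 for ENPP4, against 1.80 for ICAM1. STARD4, a sterol carrier, had 121 and 119 CPM in plus Dox and 38.0 and 35.9 CPM in minus Dox. PHTF2 had 89.0 and 89.7 CPM in plus Dox and 29.2 and 25.3 CPM in minus Dox. The longest annotated transcripts of these 5 genes hold 34.2% to 37.0% GC, and that of ICAM1 holds 56.9%. None of the 5 stands on chromosome 19.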

How the data were processed

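The authors deposited raw read counts for each Ensembl gene in 1 file per library, 4 in all, without normalization, per the file headers. The library kit keeps strand and reads were paired, per the labels' protocols. DRAGEN, cutadapt 4.0, STAR 2.7.10b, featureCounts 2.0.3, DESeq2 2.11.40.7 and the build hg38 are named, with no role or order, per the submitters' processing notes. Annotation release and strand setting: not given in the sources used here, so overlapping and antisense genes cannot be told apart. Positions, exon lengths and overlaps came from GENCODE 29, which held 57447 of the 58051 genes.

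In R 4.3.3, genes were kept by the default filterByExpr of edgeR 4.0.16 (18046 genes). TMM factors were 1.077 and 1.079 for plus Dox and 0.930 and 0.926 for minus Dox. The quasi-likelihood test of edgeR compared the groups, Benjamini-Hochberg adjustment ran over the 18046 genes, and adjusted p under 0.05 counts as higher ("rose") or lower ("fell"). Fold changes are fitted plus Dox over minus Dox values. Likeness used log2 CPM with a prior count of 2. The procedure was tested on simulated data. Total counts were 32727539 and 31104964 in plus Dox and 36377784 and 40526912 in minus Dox, so a count of 0 allows 0.0740 to 0.0964 CPM before scaling.

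The members and gene lists were chosen with earlier results of these data known, and the motifs after the promoter entries were seen. Named genes are the members, genes within 100 kb of ICAM1, from each list up to 4 with the lowest adjusted p and 2 with the highest mean, and the 5 nearest in pattern; all others were named after their values were seen. Results of a few genes are not reported here. Alternatives were other scalings (library size only, median of ratios, upper quartile), DESeq2 1.42.0, no filter, a filter of 1 CPM in 2 libraries, a replicate block, each library left out and, chosen after seeing the data, removal of a trend with GC, length and abundance. Replicate numbers were not taken to pair libraries.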

Additional observations from a re-analysis of the deposited data

How the results depend on the processing

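L1CAM, ALCAM and MCAM kept their direction and call under all 12 alternatives, and ICAM1, which was chosen on this contrast, is not counted among them. ICAM5 had −0.14 to 1.30 (log2) with 1 library left out. CD58 kept its direction but lost its call with no filter (0.27), with DESeq2 (0.28) and with 3 of the 4 libraries left out in turn (0.20 to 0.34 over all 4). With scaling by library size only, where the median of all genes is 0.22, 7865 genes were higher and 2925 lower, that is 72.9% of called genes higher against 50.0% with TMM. That scaling gave 14 higher and 6 lower neighbours of ICAM1, 19 lower neighbours of other members, 7 higher anchors and sheddases, 5 higher and 9 lower NF-κB subunits and regulators, and 3 lower interferon and STAT genes. With the trend in GC, length and abundance taken out, 6 neighbours of ICAM1 and 22 of other members were lower, and 9 anchors and sheddases were higher and 6 lower. With TMM and no trend removed, 1 neighbour within 100 kb of ICAM1 was higher and 2 were lower. Of these 2, DNMT1 lost its call with the trend removed and MRPL4 with library size scaling. DESeq2 left 1 higher leukocyte partner and 5 higher interferon and STAT genes, and the filter of 1 CPM in 2 libraries left 1 higher leukocyte partner and 1 higher NF-κB inflammatory target. With 1 library left out, lower neighbours of other members numbered 23 to 37, higher leukocyte partners 1 to 2 and higher NF-κB targets 1 to 2. The cause of these shifts was not tested.

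Single genes reversed as follows. With library size scaling the log2 fold change was 0.014 for BSG, 0.0090 for MRPL4 and 0.10 for RAVER1. With the trend removed it was 0.085 for ACTN4, 0.17 for BSG, 0.17 for FLNA and 0.15 for STAT3. With 1 library left out, FDX2 ranged from −1.22 to 0.28 and ZGLP1 from −1.29 to 0.80. The same replicate numbers appear in both groups, but deviations of same-numbered libraries from their group means had a correlation of 0.00226 over 18046 genes, so the numbers are not taken to pair libraries. A fit with the replicate block called 5219 genes higher and 5195 lower, gave ICAM5 0.49 (edgeR adjusted p = 0.126), changed no call among the members, and turned ZGLP1 to −0.042. At this depth VCAM1, ICAM2, ICAM3 and ICAM4 are limited by counts of 0 to 10 per library.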

Other observations

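Other genes near the members were read in the same way, and all genes in this paragraph were named after their values were seen. Of 197 genes that start within 500 kb of ICAM2, VCAM1, CD58, L1CAM or MCAM, 94 were tested, of which 25 were higher in plus Dox, 37 lower and 32 did not pass, with a median log2 fold change of −0.13. The share called was 66.0%, against 56.9% of all tested genes. Without plus Dox replicate 1, 23 were lower. The balance turned with library size scaling, to 36 higher and 19 lower (median 0.09), and with the trend in GC, length and abundance taken out, to 31 higher and 22 lower. No gene starts within 500 kb of ALCAM. Near MCAM, the surface glycoprotein THY1, itself an immunoglobulin adhesion protein, rose to 43.3 ± 0.940 CPM in plus Dox, against 26.1 ± 0.995 CPM in minus Dox (SD, n = 2 each). The nectin NECTIN1, on the same side of MCAM, rose to 40.2 ± 0.689 CPM in plus Dox, against 32.6 ± 3.02 CPM in minus Dox.

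Near CD58 5 of 9 tested genes were lower and 4 did not pass, and the immunoglobulin superfamily gene IGSF3, which fell, had 71.6 ± 2.40 CPM in plus Dox and 109 ± 0.436 CPM in minus Dox. Near VCAM1 5 of 8 tested genes were higher and 1 lower, with a median of 0.64. Among all tested genes 28.4% were higher and 28.4% lower, and each of these windows holds few genes. The balance of the pooled neighbours turned with library size scaling and with the trend removed. Genes named here were also chosen after their values were seen. EXTL2, a glycosyltransferase gene 176 kb from VCAM1, rose to 26.2 ± 0.474 CPM in plus Dox, against 11.6 ± 1.34 CPM in minus Dox, while VCAM1 itself had 1 count in 4 libraries. Near ICAM2, the B cell receptor gene CD79B rose to 1.35 ± 0.262 CPM in plus Dox, against 0.0429 ± 0.0230 CPM in minus Dox.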
